A study of Arabidopsis thaliana with 4 samples.

Results

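The tau and phi classes of glutathione transferase were followed across 4 arrays of osmotically stressed Arabidopsis thaliana seedlings. They were taken by locus, as GSTU1 to GSTU28 of the tau class and GSTF2, GSTF3 and GSTF6 to GSTF14 of the phi class, 39 genes in all. Of the 39, 38 had at least 1 probe, among the 25356 genes that had a probe with a gene name. GSTU21 (AT1G78360) had none that could be matched and was not analysed here, and GSTU15 (AT1G59670) was too dim to be tested, which left 26 tau and 11 phi genes.

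Glutathione transferases are dimeric, mostly cytosolic enzymes that join the tripeptide glutathione to reactive, electrophilic compounds. The conjugates are then moved into the vacuole by transporters of the ABCC family. The tau and phi classes are the ones best known in plants for handling herbicides, peroxidised lipids and other stress products, and some members bind pigments or hormones without conjugating them, while others take part in making sulphur-containing defence compounds.

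The WT and ced2 lines were compared with 2 arrays each. The wild type carried luciferase under the NCED3 promoter (NCED3pro:LUC), and the other line was the ced2 mutant, for which the labels name no transgene. Both had the gl1-Col0 background, so the controls carried gl1 as well. All seedlings were 14 d old and had spent 6 h in a 40% solution of polyethylene glycol, which withdraws water from tissue, so no unstressed sample enters any comparison. Each RNA pooled 20 whole seedlings. In such mixed tissue, fewer cells of a type and less RNA per cell cannot be told apart.

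The direction of every difference below rests on the scanner files' labels. All 4 columns of the authors' value table hold values that belong, by scanner file, to the opposite genotype (r = 0.999999 across probes, with 100% of values within 0.01), against correlations between -0.573 and -0.369 with the file of the same label. Differences are therefore given as ced2 files minus WT files, and under the value table's labels every sign would turn. VSR1, the vacuolar sorting receptor known from the literature as the gene affected in ced2, had a normalized log2 signal of 2.80 and 2.87 in the WT files and of -0.85 and -0.82 in the ced2 files. NCED3, which makes the precursor of abscisic acid, fell by 1.33 in the ced2 files. Which of both sets of labels is right was not settled.

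Signal is given throughout as log2 of the processed signal minus the 75th percentile of the same array, so 0 is the 75th percentile. Median processed signals were 405 and 341 on the WT arrays and 524 and 630 on the ced2 arrays, so brightness split by genotype. The 75th percentiles were 3322 and 2790 against 3710 and 4444. Without the filter on dim probes, the median difference over all genes was 0.13, against 0.05 with it. What brightness contributes to the differences of dim genes was not tested. Between 73.8% and 77.9% of spots were well above background, and no spot was saturated. All 4 arrays shared 1 slide, where each genotype had positions of its own, so an effect of position cannot be told apart from genotype. Replicate arrays differed very little: the median SD was 0.0317 and 0.0233 within the groups, below the 0.063 to 0.0856 between repeat spots of a probe on 1 array. The p-values measure that spread alone.

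Most of the family was higher in the ced2 files. Of the 37 members tested, 24 rose, 5 fell and 8 did not pass limma's test at an adjusted p of 0.05. That is 64.9% higher and 13.5% lower, against 42.4% higher and 35.6% lower among all 20835 genes tested. At a minimum of 2-fold, 10 members (27.0%) were higher, against 8.01% of all genes. No member reached 2-fold in the lower direction, for which the figure over all genes was 3.32%, and the lowest difference was -0.49. The median difference was 0.37 over the members and 0.05 over all genes. In the tau class 16 of 26 rose, 5 fell and 5 did not pass (median 0.33), and in the phi class 8 of 11 rose, 0 fell and 3 did not pass (median 0.59). The count of 5 lower members was 2 without either WT array and 3 without either ced2 array.

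**Figure D1:**
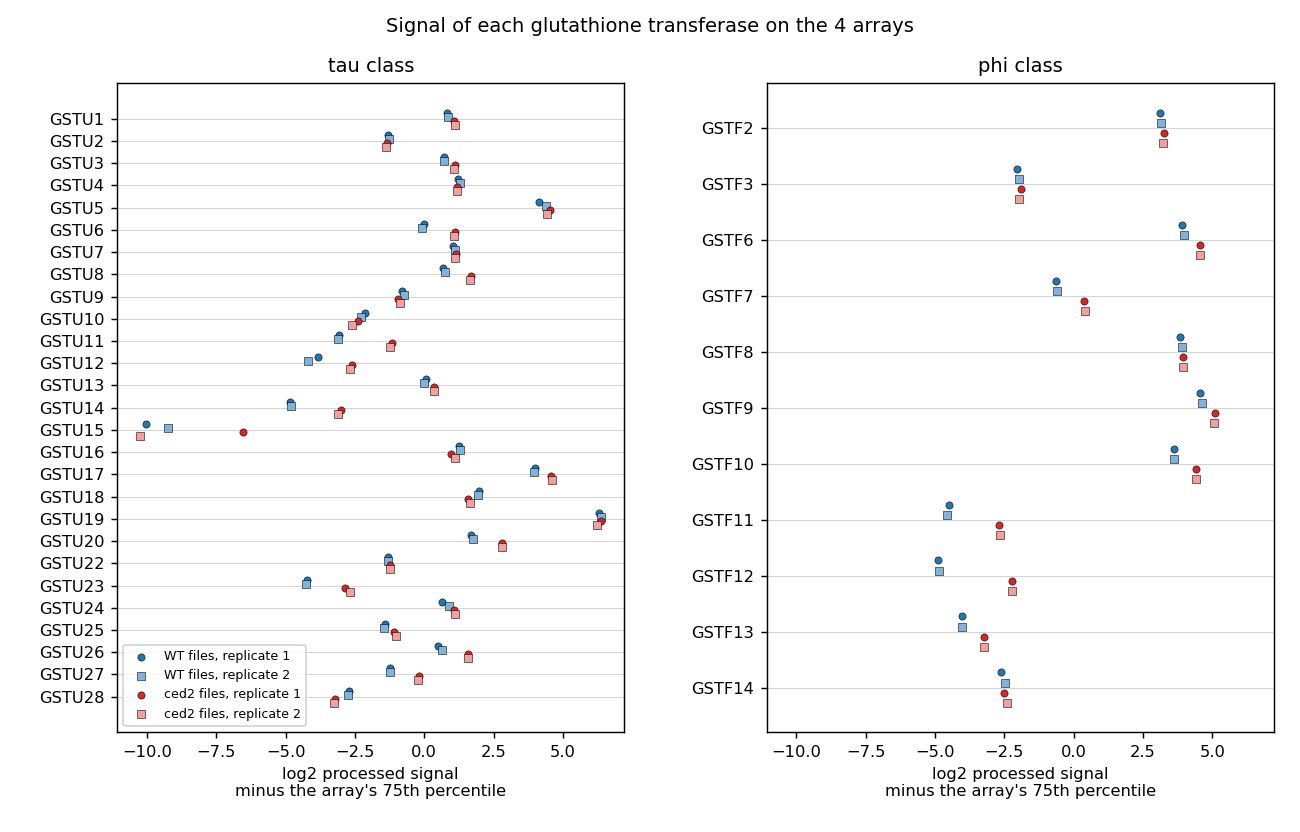
Normalized log2 signal (x axis) of the probe that represents each of the 38 members with a probe (rows), tau class on the left and phi class on the right, with 1 point per array. Blue marks the WT files and red the ced2 files. The red points of GSTF12, GSTU11, GSTF11 and GSTU14 lie well to the right of the blue ones, and those of GSTU15 spread from -6.54 to -10.2. Rows are different probes, so their levels are not comparable with each other.

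GSTF12 (AT5G17220), known as TT19, is the carrier that brings anthocyanin to the vacuole. Its signal was -4.88 on both WT arrays and -2.22 and -2.23 on the ced2 arrays. By the probe that represents each gene it stood highest among the 37 tested members, 6.28-fold above the WT files (log2 difference 2.65, SE 0.0218, n = 2 per group, limma adjusted p = 0.00016), and the groups did not overlap. A second probe, from -4.97 and -4.83 to -3.80 on both ced2 arrays, gave a smaller difference of 1.101. Averaged over its probes GSTF12 differed by 1.88, level with GSTU11 at 1.89 and GSTF11 at 1.87, so its rank rests on the choice of probe. With normexp background correction the difference was 1.80.

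The anthocyanin pathway that GSTF12 serves was read from a list of 8 genes, made up of enzymes and regulators. Of these, 7 rose, 1 fell and 0 did not pass, with a median of 1.42, where 42.4% of all genes tested rose and 35.6% fell. UF3GT, a glycosyltransferase of anthocyanins, rose by 3.12, LDOX, the leucoanthocyanidin dioxygenase, by 2.80, DFR, the dihydroflavonol reductase, by 2.74, and TT7, the flavonoid 3′-hydroxylase, by 1.40 (limma adjusted p between 0.00016 and 0.000224). The gene that fell was TT8, a bHLH regulator of the pathway, by 0.50. PAP1, the other regulator in the list, rose by 0.53 (limma adjusted p = 0.000358). TT8 and PAP1 are named here after their values were seen. With normexp the rises of UF3GT, LDOX and TT7 were 1.12, 1.600 and 0.92. All 4 enzymes rose in the same files as GSTF12. These pathway genes were dim on the WT arrays, between -7.71 and -4.23 for the 4 named. UF3GT was not well above background on WT replicate 1, so it entered the test through the ced2 files alone. It was not tested with the filter on all 4 arrays.

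GSTF11 (AT3G03190) and GSTU20 (AT1G78370) are linked to the synthesis of glucosinolates, the sulphur-rich defence compounds of the cabbage family, in which glutathione donates sulphur. GSTF11 lay at -4.51 and -4.58 in the WT files and at -2.69 and -2.67 in the ced2 files. It rose 3.65-fold (log2 difference 1.87, SE 0.0350, limma adjusted p = 0.000167), or by 1.16 with normexp. GSTU20, which also binds the jasmonate-conjugating enzyme FIN219, read 1.68 and 1.74 in the WT files and 2.79 on both ced2 arrays, a 2.11-fold rise (log2 difference 1.08, SE 0.0325, adjusted p = 0.000232). The groups of both genes were far apart relative to their replicates.

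Other members tied to these compounds moved less. GSTF9 and GSTF10 are neighbouring phi genes, and the second is the dehydration-induced ERD13. They rose by 0.47 and 0.80. GSTU13, which acts in the breakdown of indole glucosinolates during defence, rose by 0.32. Camalexin is the indole phytoalexin of Arabidopsis. GSTF6 (AT1G02930, the dehydration-induced ERD11), which conjugates a precursor of camalexin, rose by 0.59 (adjusted p = 0.000583), from 3.92 and 3.98 to 4.54 and 4.55. GSTF2, which can bind camalexin and auxin, rose by 0.11 (adjusted p = 0.0266). GSTU4, also tied to camalexin synthesis, differed by -0.06 (95% interval -0.16 to 0.04) and did not pass.

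Genes of glucosinolate and camalexin synthesis were set beside them as a list of 13, of which 10 rose, 1 fell and 2 did not pass, with a median of 1.13 (all genes: 42.4% higher, 35.6% lower). MYB28, the main regulator of aliphatic glucosinolates, rose by 1.97, and CYP83B1, CYP79B3 and CYP79B2, cytochromes of the indole branch, by 1.79, 1.61 and 1.58 (limma adjusted p between 0.00016 and 0.000191). MYB28 rose by 0.81 with normexp. Among genes of camalexin synthesis, CYP71A13 fell by 1.02, and PAD3, the last enzyme of the pathway, differed by -0.22 (limma adjusted p = 0.0548). GGP1, in the same list, rose by 0.57 (adjusted p = 0.00115). PAD3 passed as lower with quantile normalization, at -0.30 (limma adjusted p = 0.022), and with normexp, at -0.20 (0.0258). It also passed with the filter on all 4 arrays and with the intensity trend (adjusted p = 0.0385 and 0.0185). PAD3 was at -0.31 without WT replicate 1 and at -0.14 without WT replicate 2. CYP71A13, PAD3 and GGP1 are named after their values were seen.

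Members with no assigned substrate made up most of the other strong rises. GSTU11 (AT1G69930) read -3.07 and -3.10 in the WT files and -1.18 and -1.22 in the ced2 files, a 3.69-fold rise (log2 difference 1.89, SE 0.0295, limma adjusted p = 0.00016). Its neighbour GSTU12 (AT1G69920) read -3.83 and -4.21 against -2.62 and -2.67 and rose 2.59-fold (log2 difference 1.37, SE 0.146, adjusted p = 0.00277). The WT arrays of GSTU12 lay farther apart than those of any other of the 12 strongest members, though still below both ced2 arrays.

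GSTU14 (AT1G27140) rose 3.43-fold (SE 0.0427, limma adjusted p = 0.00019), from -4.85 and -4.81 to -3.00 and -3.10. GSTU23 (AT1G78320) rose 2.78-fold (SE 0.0698, adjusted p = 0.00044), from -4.23 and -4.25 to -2.85 and -2.68. Both were dim, and their log2 differences of 1.78 and 1.48 were 1.09 and 0.95 with normexp. GSTF13 (AT3G62760), a dim phi gene, rose by 0.78, or by 0.40 with normexp.

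The remaining 5 of the 12 highest members lay near a doubling. GSTU6 (AT2G29440) read -0.01 and -0.10 in the WT files and 1.12 and 1.06 in the ced2 files, a log2 difference of 1.15 (limma adjusted p = 0.000331). GSTU27 (AT3G43800) read -1.24 and -1.23 against -0.19 and -0.22, a difference of 1.04 (adjusted p = 0.00019). GSTF7 (AT1G02920), next to GSTF6, read -0.64 and -0.62 against 0.39 and 0.40, a difference of 1.02 (adjusted p = 0.000186). In all 3 the spread within a group was small against the gap between groups.

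GSTU26 (AT1G17190), a gene induced by herbicides, read 0.51 and 0.65 in the WT files and 1.56 and 1.59 in the ced2 files, and differed by 0.99 (limma adjusted p = 0.000655). GSTU8 (AT3G09270) read 0.67 and 0.75 against 1.67 and 1.66, a difference of 0.96 (adjusted p = 0.000323). Neither had overlapping groups. With quantile normalization both came to a full 2-fold, at 1.03 and 1.00, but with normexp they did not, at 0.94 and 0.91.

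**Figure D2:**
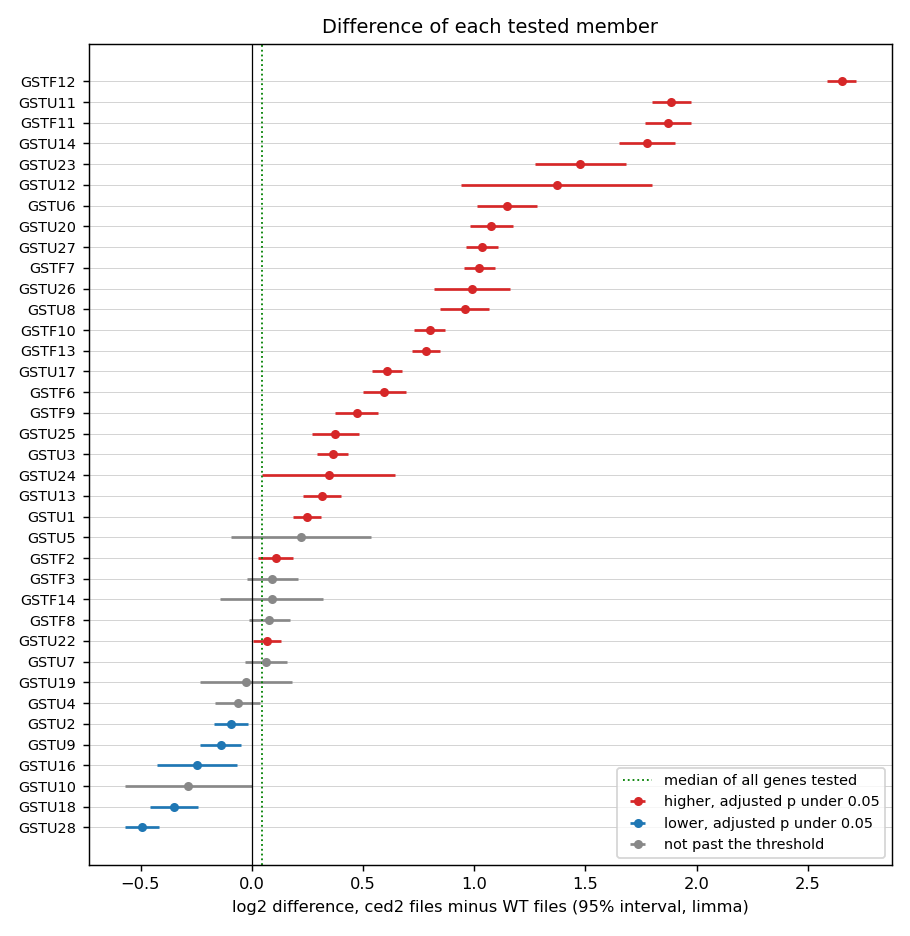
Log2 difference of each of the 37 tested members, ced2 files minus WT files, with limma's 95% interval as bars. Red marks 24 members that rose, blue 5 that fell and grey 8 that did not pass, and the dotted line is the median of all genes tested, 0.05. The members run from -0.49 for GSTU28 to 2.65 for GSTF12.

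Among members known from drought and abscisic acid, GSTU17 (AT1G10370, ERD9) is the best studied: plants without it hold more glutathione and abscisic acid and withstand drought better. Its signal was 3.98 and 3.97 in the WT files and 4.58 and 4.60 in the ced2 files, a rise of 0.61 (1.53-fold, SE 0.0230, limma adjusted p = 0.000306). All 3 of its probes were higher, by 0.57 to 0.79. Together with GSTF6 and GSTF10, each of the 3 members named early responsive to dehydration (ERD) was higher in the ced2 files. So were 64.9% of the tested members and 42.4% of all genes.

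GSTU24 and GSTU25, which conjugate the explosive trinitrotoluene, rose by 0.35 and 0.38 (limma adjusted p = 0.0436 and 0.00203). GSTU19 (AT1G78380), a herbicide-responsive tau enzyme, read 6.30 and 6.36 in the WT files and 6.39 and 6.22 in the ced2 files, so its groups overlapped. Its difference was -0.03 (95% interval -0.23 to 0.18, adjusted p = 0.742), and its 3 probes did not share a sign, at -0.03, 0.02 and 0.10. The direction of GSTU19 depended on the scaling: it rose by 0.27 with quantile normalization and by 0.35 with normexp (adjusted p = 0.00729 and 0.00044). GSTF8, a stress-induced phi gene with a form in the chloroplast, differed by 0.08 (adjusted p = 0.0903) and rose by 0.20 under both of those settings.

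In all, 5 members fell. GSTU28 (AT1G53680) went from -2.73 and -2.76 to -3.23 and -3.25, a fall of 0.49 (SE 0.0254, limma adjusted p = 0.000509). GSTU18 (AT1G10360) went from 1.97 and 1.93 to 1.57 and 1.64 and fell by 0.35 (adjusted p = 0.00267). These 2 kept an adjusted p under the threshold in all 12 alternative settings that follow the scanner labels.

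The other 3 falls were smaller and less stable. GSTU16 (AT1G59700) fell by 0.25, from 1.24 and 1.304 to 0.96 and 1.096 (limma adjusted p = 0.0277, or 0.0836 with normexp). GSTU9 (AT5G62480) fell by 0.14, from -0.79 and -0.75 to -0.93 and -0.88 (adjusted p = 0.0217). GSTU2 (AT2G29480) fell by 0.09, from -1.29 and -1.26 to -1.36 and -1.38 (adjusted p = 0.037). GSTU16 lost its call without either WT array or without ced2 replicate 1, and GSTU9 and GSTU2 lost theirs whichever array was left out. Their groups did not overlap, but neither did those of GSTU4, GSTU5, GSTU7, GSTU10, GSTF3 and GSTF8, which did not pass.

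The last 4 rises were GSTU3 at 0.37, GSTU1 at 0.25, and, smallest, GSTF2 at 0.11 and GSTU22 at 0.07. GSTU22 (AT1G78340) passed narrowly (limma adjusted p = 0.0489), and its sign turned with quantile normalization and normexp, both at -0.01. GSTU22 and GSTF2 lost their calls whichever array was left out, and GSTU24 lost its call without either ced2 array. The members that did not pass were GSTU4, GSTU5, GSTU7, GSTU10, GSTU19, GSTF3, GSTF8 and GSTF14, with differences from -0.28 for GSTU10 to 0.22 for GSTU5. GSTU5 was at 0.093 without WT replicate 1, at 0.35 without WT replicate 2 and at 0.38 with normexp. GSTU10 passed as lower in 6 of 12 alternatives. GSTF3 and GSTF14, each at 0.09, were at -0.03 and -0.07 with quantile normalization and at -0.03 and -0.02 with normexp. GSTU15 read -10.0 and -9.25 in the WT files and -6.54 and -10.2 in the ced2 files, and was well above background on ced2 replicate 1 alone.

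**Figure D3:**
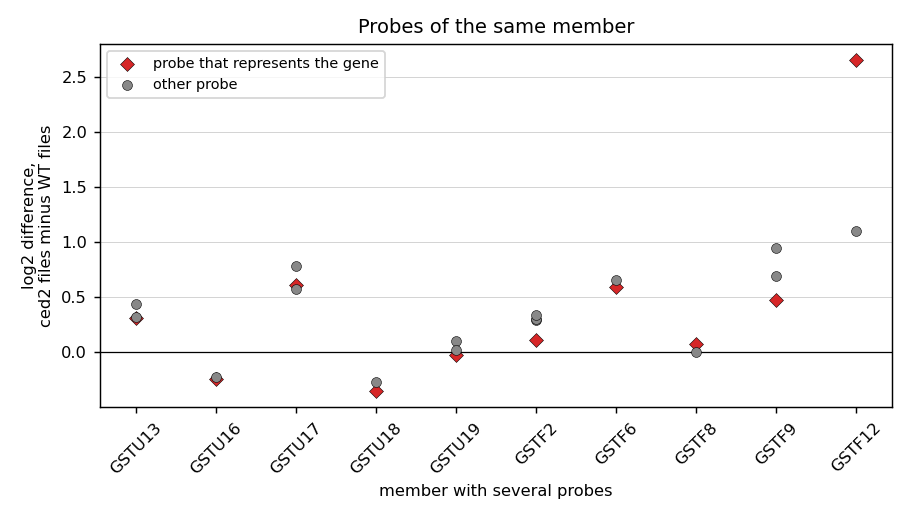
Log2 difference, ced2 files minus WT files, of every probe of the 10 members with more than 1 probe. Red diamonds mark the probe that represents the gene in the test, the one with the highest mean. The probes of GSTF12 lie farthest apart, at 2.65 and 1.101, and those of GSTU19 fall on both sides of 0.

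The 38 members had 54 probes between them, and 10 members had several. In 9 of these 10 the probes shared a sign, and GSTU19 was the exception. The spread was largest for GSTF12, then for GSTF9, with 0.47 for the probe that represents it and 0.69 and 0.95 for the others. The representing probe of GSTF2 gave 0.11 and its other probes 0.29 to 0.34. Sequences of the probes were not used here, and near-identical pairs such as GSTF2 and GSTF3 or GSTF6 and GSTF7 may share hybridization, so their separate values are uncertain.

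Members that stand next to each other did not always move together. In the gene order of the assembly TAIR10.1, 27 of the 39 loci fall into 9 groups in which at most 5 genes lie between neighbours, and 12 stand alone. The group of 7 on chromosome 2, GSTU1 to GSTU7, held 3 members that rose, 1 that fell and 3 that did not pass. Within it only GSTU6 went past 2-fold. The group of 5 on chromosome 1, GSTU19 to GSTU23, ran from -0.03 for GSTU19 to 1.48 for GSTU23, with GSTU20 at 1.08 directly beside GSTU19. GSTU17 rose by 0.61 and its direct neighbour GSTU18 fell by 0.35. Both members of the pairs GSTU11 and GSTU12, GSTU13 and GSTU14, GSTF6 and GSTF7, and GSTF9 and GSTF10 rose, as did all of GSTU24, GSTU25 and GSTU26. These counts stand beside 64.9% higher and 13.5% lower among all tested members, and 42.4% and 35.6% among all genes. Differences between neighbours were not tested.

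**Figure D4:**
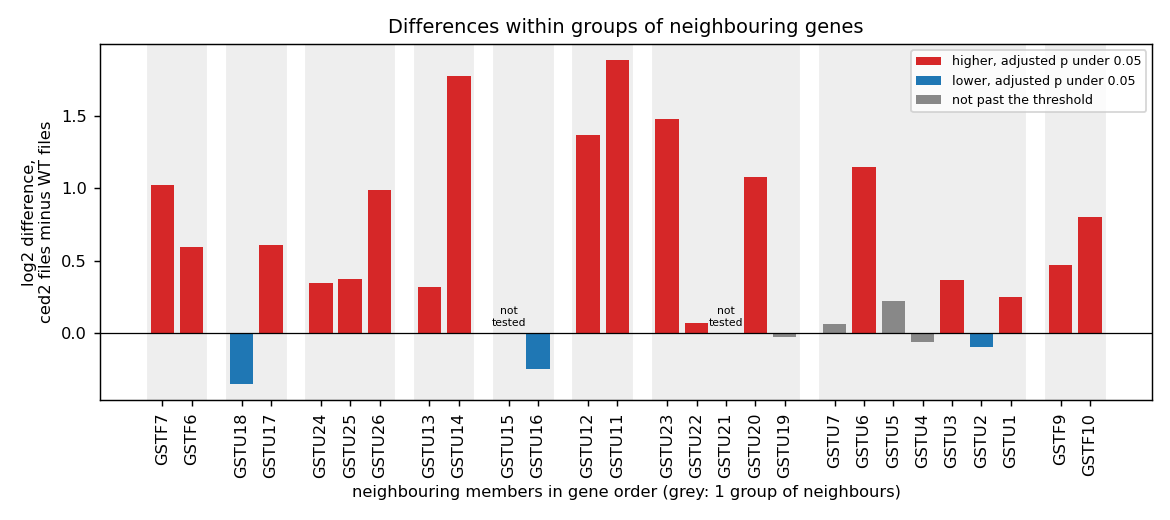
Log2 difference, ced2 files minus WT files (bars, from 0), of the 27 members that lie in 9 groups of neighbouring genes, in gene order, each group on a grey band. Red bars passed as higher, blue as lower, and grey bars did not pass. GSTU17 and GSTU18 point in opposite directions, and in the group GSTU19 to GSTU23 the bars of GSTU20 and GSTU23 stand at 1.08 and 1.48 beside values near 0.

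Of 13 measured genes of the theta, zeta, lambda, dehydroascorbate reductase and TCHQD classes together with GSTF4 and GSTF5, 4 rose, 5 fell and 4 did not pass (median -0.05), beside 42.4% higher and 35.6% lower among all genes tested. How they differ from the tau and phi members was not tested. GSTT2 and GSTT3 of the theta class fell by 0.86 and 0.47, and GSTZ1, which acts in tyrosine breakdown, by 0.66, while GSTL2 of the lambda class rose by 0.58 (limma adjusted p between 0.000196 and 0.000408). Averaged over its 2 probes GSTT2 differed by -0.92 and did not pass (adjusted p = 0.0829). GSTL1, named after its value was seen, rose by 1.55 and was the 1 gene of this list past 2-fold, though at 0.97 with normexp it was not.

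Of 9 genes of glutathione supply and turnover, 3 rose, 2 fell and 4 did not pass (median -0.08), where 42.4% of all genes rose and 35.6% fell. GGCT2;1, a cyclotransferase that breaks glutathione down in the cytosol, rose by 1.21, and GR2, the glutathione reductase of plastids and mitochondria, by 0.38 (limma adjusted p = 0.000353 and 0.00192). With quantile normalization and normexp the rise of GGCT2;1 was 0.98 and 0.65. GSH1, which makes the first step of glutathione synthesis, fell by 0.20 (adjusted p = 0.00283), and did not pass when averaged over its probes, at -0.06 (adjusted p = 0.0734). GR1, the cytosolic reductase, rose by 0.28. Of the 8 glutathione peroxidases, 3 rose, 4 fell and 1 did not pass (median -0.05), and GPX4, GPX2 and GPX5 fell by 0.99, 0.51 and 0.51 while GPX7 rose by 0.42. With normexp GPX2 was at -0.32 and GPX7 at 0.21. Of the 8 ABCC transporters, 1 rose, 5 fell and 2 did not pass (median -0.12). ABCC5, ABCC7 and ABCC2, the last a vacuolar pump for glutathione conjugates, fell by 0.25, 0.19 and 0.13. ABCC10 (AT3G59140, by its RefSeq symbol) rose by 0.37. ABCC7 was at -0.38 with quantile normalization and lost its call without ced2 replicate 1 (adjusted p = 0.053), and ABCC2 lost its call without WT replicate 1 or either ced2 array (adjusted p between 0.0559 and 0.104).

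Some TGA factors, with the partner SCL14, switch on many tau genes when plants meet foreign chemicals. Of 9 listed regulators, TGA and NAC factors and SCL14, 4 rose, 4 fell and 1 did not pass (median -0.10). TGA4 fell by 0.41 and TGA2 rose by 0.25 (limma adjusted p = 0.00174 and 0.0017). TGA2 did not pass with quantile normalization, at 0.07, or with normexp, at -0.02. The 4 regulators that fell were all TGA factors, but TGA5 rose like TGA2, by 0.11 (limma adjusted p = 0.0248). SCL14 differed by -0.13 and did not pass (adjusted p = 0.0599). TGA5 and SCL14 are named after their values were seen. The NAC factors NAC102 and NAC032 rose by 0.71 and 0.36 (adjusted p = 0.000528 and 0.000692). Among 12 other genes that respond to foreign chemicals 9 rose, 0 fell and 3 did not pass (median 0.31), again beside 42.4% higher and 35.6% lower over all genes. OPR2 and OPR1, reductases of oxylipins, rose by 1.00 and 0.99, and the glucosyltransferases UGT73B4 and UGT74E2 by 0.84 and 0.42. UGT73B4 was at 0.52 with normexp. No gene of this list reached 2-fold, but OPR1 did with quantile normalization, at 1.06, with normexp, at 1.02, and averaged over its probes, at 1.20.

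**Figure D5:**
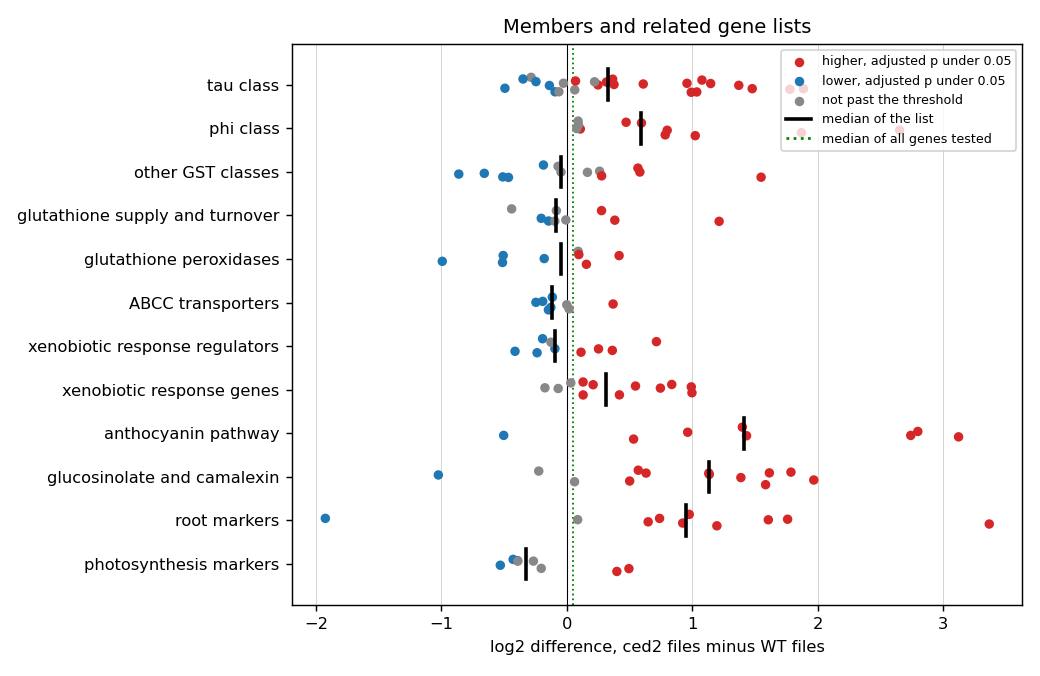
Log2 difference, ced2 files minus WT files, of each tested gene of the tau and phi classes and of 10 related lists. Points are genes, coloured by call, black bars are list medians and the dotted line is the median of all genes tested. The anthocyanin (1.42), glucosinolate and camalexin (1.13) and root marker (0.95) medians lie highest, and the photosynthesis markers (-0.33) lowest.

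Root markers moved with the genotype beside all of these groups. Of 10, 8 rose, 1 fell and 1 did not pass (median 0.95), against 42.4% higher and 35.6% lower of all genes, and their summed level was -0.11 and -0.10 in the WT files and 0.92 and 0.93 in the ced2 files. IRT1, the iron transporter of the root epidermis, rose by 3.37 and the root hair genes COBL9, EXPA18 and RHD6 by 1.76, 1.61 and 1.196. With normexp EXPA18 and RHD6 were at 1.03 and 0.72. The marker that fell, NRT2.1, was not well above background on either ced2 array and was at least 2.21-fold lower. That bound rests on the processed signal: with normexp its difference was -0.45, which is less than 2.21-fold. Of 8 photosynthesis markers, 2 rose, 3 fell and 3 did not pass (median -0.33), with summed levels of 9.56 and 9.75 against 9.43 and 9.22. FBA1 and PRK, enzymes of the Calvin cycle, were the markers that rose, by 0.40 and 0.49. PSAF and LHCA1, of photosystem I, fell by 0.53 and 0.39. Their differences were -0.15 and 0.01 with quantile normalization and -0.15 and -0.02 with normexp, and LHCA1 lost its call without either WT array or without ced2 replicate 2. FBA1 was at 0.66 with normexp. Apart from NRT2.1 in the ced2 files, every marker of both sets was well above background on all 4 arrays. The part of tissue makeup in the differences of the members was not tested.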

How the data were processed

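The data are 4 Agilent arrays of 1 colour, 2 per genotype. Per the labels, 0.3 µg of RNA was labelled with Cy3 and replicates are biological. Per the submitters' processing notes, Agilent's Feature Extraction software, version 10.7.1.1, produced the spot values. The deposited intensity (processed signal) is background-subtracted and detrended within an array, per the file headers. The authors' deposited value table holds log2 values of unstated scaling. It matched the log2 processed signal minus the 75th percentile, centred on each probe's median, with column medians of 0.08 and -0.03 (WT) and 0.01 and -0.03 (ced2). Which genotype its columns hold is unsettled.

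Control and outlier spots were left out, which dropped 70 of 43603 probes, and repeat spots were averaged on the log2 scale. Accessions were matched to RefSeq's TAIR10.1 gene table for names and gene order only, since the header names an older build. A gene took its brightest probe, by mean over the arrays, and entered the test if, in at least 1 group, neither array had this probe near background. The test was limma 3.58.1 (R 4.3.3) across 20835 genes with Benjamini-Hochberg adjustment, two-sided, at 2 residual and 1.49 prior degrees of freedom, and was tested on simulated data. "At least" marks a fold against a group not well above background.

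Members and lists were chosen with earlier results of these data known. Values on every array are given for up to 12 members highest and 12 lowest among those called with groups that do not overlap, and for members whose probes disagree in sign. Of each list, up to 4 called genes with the smallest p are named, and others are marked in the text.

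Deviations of same-numbered arrays correlated at 0.05 across genes, so the numbers are not taken to pair arrays. Alternatives were quantile normalization, normexp (offset 50, on median spot and background intensity, then quantile), no filter or a filter on all 4 arrays, the value table, the mean over probes, a replicate block, an intensity trend, an adjusted p of 0.01 and leaving out each array.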

Additional observations from a re-analysis of the deposited data

How the results depend on the processing

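The members' counts depended mainly on which deposited labels are followed. With the authors' value table under its own column labels, 5 members were higher and 24 lower, with a median of -0.36, and every called gene listed next turned its sign. Its differences were GSTU1 -0.25, GSTU3 -0.36, GSTU6 -1.15, GSTU8 -0.96, GSTU11 -1.88, GSTU12 -1.37, GSTU13 -0.31, GSTU14 -1.78, GSTU17 -0.61, GSTU20 -1.08, GSTU22 -0.068, GSTU23 -1.48, GSTU24 -0.35, GSTU25 -0.38, GSTU26 -0.99, GSTU27 -1.03, GSTF2 -0.11, GSTF6 -0.59, GSTF7 -1.02, GSTF9 -0.47, GSTF10 -0.80, GSTF11 -1.87, GSTF12 -2.65, GSTF13 -0.78, ABCC14 -0.37, UF3GT -3.12, DFR -2.74, LDOX -2.80, TT7 -1.40, MYB28 -1.97, CYP83B1 -1.79, CYP79B3 -1.61, CYP79B2 -1.58, GPX7 -0.42, GGCT2;1 -1.21, GR2 -0.38, GR1 -0.28, GSTL2 -0.58, IRT1 -3.37, COBL9 -1.76, RHD6 -1.19, EXPA18 -1.60, FBA1 -0.40, PRK -0.49, OPR1 -0.99, OPR2 -0.996, UGT73B4 -0.84, UGT74E2 -0.42, NAC102 -0.71, NAC032 -0.36, TGA2 -0.25, GSTL1 -1.55, and on the positive side GSTU2 0.095, GSTU9 0.14, GSTU16 0.25, GSTU18 0.35, GSTU28 0.49, ABCC5 0.25, ABCC7 0.19, ABCC2 0.13, GPX4 0.99, GPX2 0.51, GPX5 0.51, GSH1 0.20, GSTT2 0.86, GSTZ1 0.66, GSTT3 0.47, VSR1 3.67, NCED3 1.33, PSAF 0.53, LHCA1 0.39, TGA4 0.41, TT8 0.50, CYP71A13 1.02, NRT2.1 1.93.

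Under the 12 alternatives that keep the scanner labels, 21 of the 24 higher and 2 of the 5 lower members passed in the same direction throughout. The 6 that lost a call somewhere were GSTU2, GSTU9, GSTU16, GSTU22, GSTU24 and GSTF2. GSTU10, GSTU5, GSTU19 and GSTF8 gained one somewhere, of which GSTU10 without ced2 replicate 1 and GSTU5 and GSTF8 without WT replicate 2. The count of higher members stayed between 21 and 26. The count of lower members was 6 with quantile normalization, with the filter on all 4 arrays and with the intensity trend, 5 with normexp, the mean over probes and the replicate block, 3 without a filter on dim probes, 2 at an adjusted p of 0.01, and between 2 and 3 with 1 array left out. Members past 2-fold numbered 7 with normexp and 10 or 11 otherwise. The replicate block left 22 higher, 5 lower and 10 past 2-fold, and ended the calls of GSTU2, GSTU22 and GSTF2 (limma adjusted p = 0.0806, 0.0938 and 0.0652), while GSTU10 passed (0.0168). With 2 pairs it left the numbers as names only. Of the named genes that had passed, the sign turned with quantile normalization for GSTU22 (-0.0076) and LHCA1 (0.014). With normexp it turned for GSTU22 (-0.0058) and TGA2 (-0.018). GSTU19, GSTF3 and GSTF14, which had not passed, changed sign under both settings. Of all genes past 2-fold, 70.7% were higher, against 61.2% with quantile normalization and 61.0% with normexp. The 2 arrays per group limit the precision.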
